A study of Allium sativum with 18 samples.

Results

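A set of 98 abundant transcripts whose levels were nearly even over the 6 groups of garlic (Allium sativum) clove was taken from 57561 gene IDs. A gene belonged to the set when each of its 6 group means was at least 100 FPKM, its largest group mean was below 1500 FPKM and its largest group mean was at most 1.5 times its smallest. FPKM is the number of fragments assigned to a gene, divided by the length of its model and by the total of the library, so that genes and libraries can be set side by side. The measured values themselves chose the members, so their evenness is described here and not tested. The bulbs came from plants labelled Chalingzipisuan, and basal clove and storage clove were taken apart by hand. Basal and storage clove were each sampled from enlarging bulbs (1 week after the flower stems emerged), from dormant bulbs and from germinating bulbs with a short shoot, with 3 biological replicates per group and 18 libraries in all. No treatment or genotype separated the groups, and plant age, whether plants were pooled and which bulb parts each tissue name covers are not stated in the labels. The files pair no gene ID with a name, a description or a position, so members are given by ID and the labelled tissues could not be checked against marker genes.

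A reference gene is a transcript used as an internal standard: the level of another gene is divided by it, so it has to stay at one level across the tissues and stages compared. Genes proposed for this use in plants usually serve functions that every living cell needs, such as the cytoskeleton, protein synthesis and protein turnover. A clove of garlic first fills with reserves, then rests and finally feeds a growing shoot. A value such as FPKM is a share of the RNA sequenced, so a gene can keep its share while the amount of RNA per cell changes. In such bulk samples fewer cells of a kind and less RNA per cell cannot be told apart.

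The reads assigned to genes, recovered from the steps of the FPKM values, came to between 6540146 and 21897520 per library, lowest in dormant storage clove. Every basal library had at least 17933342 and every storage library at most 12988262, so each comparison of the tissues is also one of depths. The fewest reads for a member in any library were 146, and 48 of the 98 had at least 1000 reads in every library. Storage enlarging replicate 2 lay nearer to basal enlarging clove (mean Spearman correlation 0.895 over 30530 genes) than its replicates did (0.868 and 0.857). Basal germinating replicate 3 lay nearer to storage germinating clove (0.829, against 0.798 and 0.778 for its replicates). Without both libraries the same rule found 95 genes, 91 of them members. Nothing in the labels says that replicates came from separate plants beyond calling them biological, so p-values measure only the spread between these samples, which may be technical.

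Evenness was uncommon among abundant genes. Of the 826 genes that met the floor and the upper limit, 98 (11.9%) also kept within 1.5-fold. Over all 826 the largest group mean divided by the smallest ranged from 1.08 to 13.9, with a median of 2.08. Inside the set the ratio had a median of 1.39. It was at most 1.2 for 8 members and above 1.4 for 45 members. No gap marked the limit, since 23 members lay up to 0.05 under it and 29 genes outside the set up to 0.05 over it. The member nearest the ratio limit was Asa5G01598.1 at 1.499, and the nearest gene beyond it was Asa8G04842.1 at 1.501. At the floor the nearest genes were Asa7G02489.1, with a smallest group mean of 100.5 FPKM, and Asa6G04244.1, at 99.7 FPKM. At the upper limit they were Asa6G01995.1, with a largest group mean of 1406 FPKM, and Asa1G03029.1, at 1583 FPKM. Among genes at lower levels, with all group means from 10 to below 100 FPKM, 856 of 6515 (13.1%) kept within 1.5-fold, and from 1 to below 10 FPKM 218 of 4596 (4.74%) did. None of the 8 genes with all means at or above 1500 FPKM did.

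**Figure D1:**
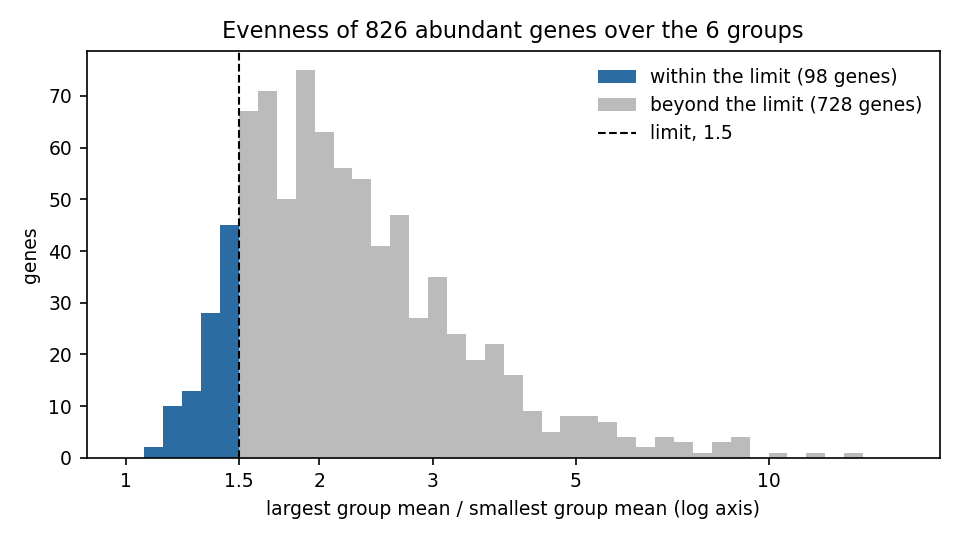
Number of genes (vertical axis) by the largest group mean divided by the smallest (horizontal axis, log scale), for the 826 genes whose 6 group means are at least 100 and below 1500 FPKM. The 98 members, in blue, end at the limit of 1.5 (dashed line) on the rising side of a distribution with a median of 2.08.

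The members covered most of the range that the limits allowed. Their mean over the groups ran from 110.3 to 1167 FPKM with a median of 203, against a median of 268 over the 826 genes. A mean below 150 FPKM was found for 25 members, 23 were from 150 to 200, 25 from 200 to 300, 12 from 300 to 500 and 13 higher. Level and evenness were nearly unrelated over the members (Spearman correlation 0.17 across 98 genes measured in the same libraries, given as a description). The gene models recovered with the reads had coding lengths from 210 to 3222 bp with a median of 634.5 bp, against 636 bp over the 826 genes. The digit that follows Asa in the ID, which the files do not explain, was 7 for 21 members (21.4%), against 19.0% of the 826 genes. No member had the ID number next to that of another member.

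The most even member was Asa2G00997.1. In enlarging bulbs Asa2G00997.1 measured 107, 104 and 110.0 FPKM in the 3 basal libraries and 120.2, 113 and 106 in the 3 storage libraries. In dormant bulbs it measured 114, 117 and 113 FPKM in basal and 111, 116 and 104 in storage clove. Germinating bulbs had 106, 117 and 110.4 FPKM in basal and 106, 102 and 109.8 in storage clove. Its 6 group means lay between 106 and 115 FPKM, a ratio of 1.08, and its highest library exceeded its lowest by 1.18-fold. The 3 values in basal dormant clove, its highest group, all exceeded the 3 in storage germinating clove, its lowest. It was also the member with the lowest mean, at 110.3 FPKM.

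Asa1G02383.1 was even at a higher level. Asa1G02383.1 measured 359, 371 and 351 FPKM in the basal libraries of enlarging bulbs, 389, 376 and 348 in those of dormant and 373, 367 and 350.5 in those of germinating bulbs. The storage libraries of the same stages had 350.4, 365 and 332, then 388, 412 and 358 and last 412, 374 and 387 FPKM. Its group means reached from 349 ± 16.6 FPKM in storage enlarging to 391 ± 19.3 in storage germinating clove (mean ± SD, n = 3 here and below), a ratio of 1.12. The spread within dormant storage clove, from 358 to 412 FPKM, was larger than the distance between the highest and the lowest group mean.

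Asa8G03226.1 had a ratio of 1.15. In enlarging bulbs Asa8G03226.1 measured 222, 227 and 217 FPKM in the 3 basal libraries and 225, 206 and 210.0 in the 3 storage libraries. In dormant bulbs it measured 239.7, 228 and 223 FPKM in basal and 217, 216 and 210.4 in storage clove. Germinating bulbs had 223, 235 and 196 FPKM in basal and 210.2, 195 and 197 in storage clove. Basal dormant clove was highest at 230.2 ± 8.68 FPKM and storage germinating clove lowest at 201 ± 8.21. Basal germinating clove spanned 196 to 235 FPKM, which covers the means of all other groups.

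Asa2G01012.1 kept nearly even at a far higher level than Asa8G03226.1, with means over the groups of 1084 against 217 FPKM. Asa2G01012.1 measured 1009, 979 and 957 FPKM in the basal libraries of enlarging bulbs, 1097, 1079 and 966 in those of dormant and 1183, 1192 and 1009 in those of germinating bulbs. The storage libraries of the same stages had 1106, 1085 and 1165, then 1099, 1059.8 and 1109.8 and last 1199.5, 1103 and 1106 FPKM. Its group means went from 982 ± 26.1 FPKM in basal enlarging to 1136 ± 54.8 in storage germinating clove, a ratio of 1.16. Replicate 3 was the lowest of its group in basal clove at all 3 stages and the highest in storage enlarging and storage dormant clove.

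**Figure D2:**
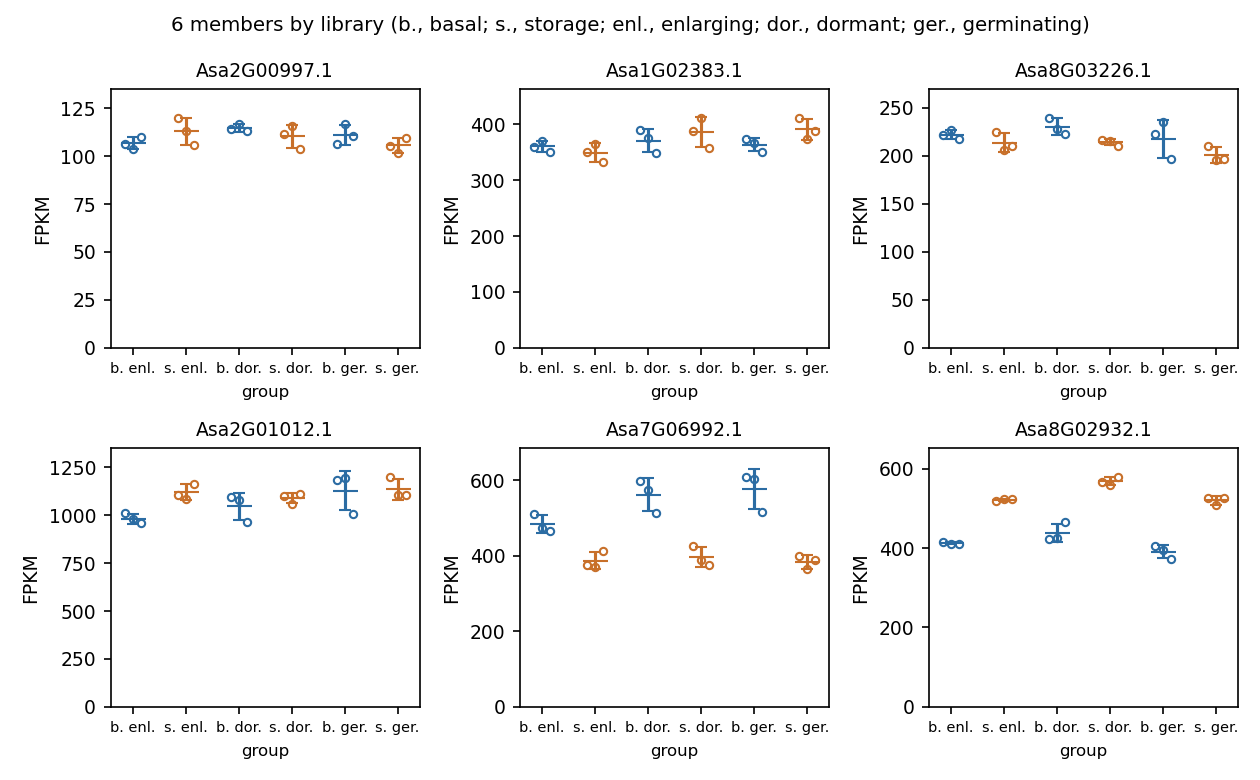
FPKM (vertical axes, from 0) in each of the 18 libraries (open circles) by group (horizontal axes), with the mean and SD of 3 libraries, for 4 of the most even members and 2 with a tissue pattern. Blue is basal and orange storage clove. Asa2G00997.1 stays between 102 and 120.2 FPKM, while Asa7G06992.1 is higher in basal clove and Asa8G02932.1 higher in storage clove at all 3 stages.

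With the deposited values these 4 genes were also the members that a moderated F-test did not separate over the 6 groups. Of the 98 members, 94 had an adjusted p below 0.05 (limma, Benjamini-Hochberg over 30530 genes), against 92.3% of all genes tested. Since the same means chose the members, nothing is read from that count about the set. For Asa2G00997.1 the adjusted p was 0.41, for Asa1G02383.1 0.17, for Asa8G03226.1 0.12 and for Asa2G01012.1 0.078 (limma), values that do not show equal levels. After median-ratio scaling the test called all 98 members, with a highest adjusted p of 0.037 (limma), against 91.0% of all genes tested. It called 95 after quantile normalization (93.1% of all genes tested) and 96 with equal sums of FPKM (92.6%). For each of the 98 members the 3 values in its highest group all exceeded the 3 in its lowest. That pair of groups was picked from the values, which favours such a gap. No share over all genes stands beside this count, so nothing is read from it.

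A fuller view of the members came from their libraries one by one. The highest of the 18 values exceeded the lowest by 1.18 to 1.79-fold, with a median of 1.51-fold, and 44 members kept within 1.5-fold over single libraries. Besides Asa2G00997.1, Asa1G02383.1 and Asa8G03226.1, the smallest such ratio was that of Asa6G00131.1, at 1.24. Asa6G00131.1 stood at 188 ± 4.09 FPKM in basal enlarging, 161 ± 1.95 in basal dormant and 166 ± 3.88 in basal germinating clove, and at 184 ± 9.38, 179 ± 7.89 and 181 ± 16.3 in storage clove of the same stages. Its basal dormant values, 160.2, 164 and 160.4 FPKM, were all below the 3 basal enlarging values, 184, 192 and 188.

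Replicates of a member differed little. The coefficient of variation between the 3 replicates (SD divided by mean, median of the 6 groups) was 4.25% at the median member and ranged from 1.15% to 9.32%, below 5% for 73 of the 98. The 826 genes that met the floor and the upper limit, members included, had a median of 4.87%, and those outside the set 5.04%. A limit on group means can favour genes with close replicates, so nothing is read from the members' lower values, here and below. Counting error alone, from the recovered reads, would give a median of 2.11% over the members. Replicates were furthest apart in basal germinating clove, with a median of 6.35% for the members and 9.01% for the 826 genes. The members' replicates were closest in basal enlarging clove (2.80%), those of the 826 genes in basal dormant clove (3.93%). Without basal germinating replicate 3 the median over the members was 3.56%. That library held the lowest of the 18 values for 21 of the 98 members.

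Closeness of replicates and evenness of groups were nearly unrelated over the members (Spearman correlation -0.040 across the 98 genes, a description). Asa7G00417.1 had the closest replicates. In enlarging bulbs Asa7G00417.1 measured 189, 187 and 188 FPKM in the 3 basal libraries and 219, 221 and 221 in the 3 storage libraries. In dormant bulbs it measured 217, 218 and 222 FPKM in basal and 200.5, 194 and 209 in storage clove. Germinating bulbs had 246, 241 and 244 FPKM in basal and 275, 268 and 279.7 in storage clove. Storage enlarging and basal dormant clove overlapped, while the ratio was 1.46 between storage germinating clove (274 ± 5.90 FPKM) and basal enlarging clove (188 ± 1.16 FPKM). Asa5G05204.1 came next, at 199, 199 and 199.7 FPKM in storage enlarging and 142, 139 and 141 in basal enlarging clove, a pair of groups that did not overlap. The loosest replicates were those of Asa5G05581.1, with 128, 113 and 146 FPKM in storage dormant and 139.9, 117 and 115 in basal enlarging clove. Asa7G00363.1 followed, with 157, 138 and 129.6 FPKM in storage enlarging clove. Asa5G05581.1 had 224 to 917 reads per library and Asa7G00417.1 1998 to 8040.

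**Figure D3:**
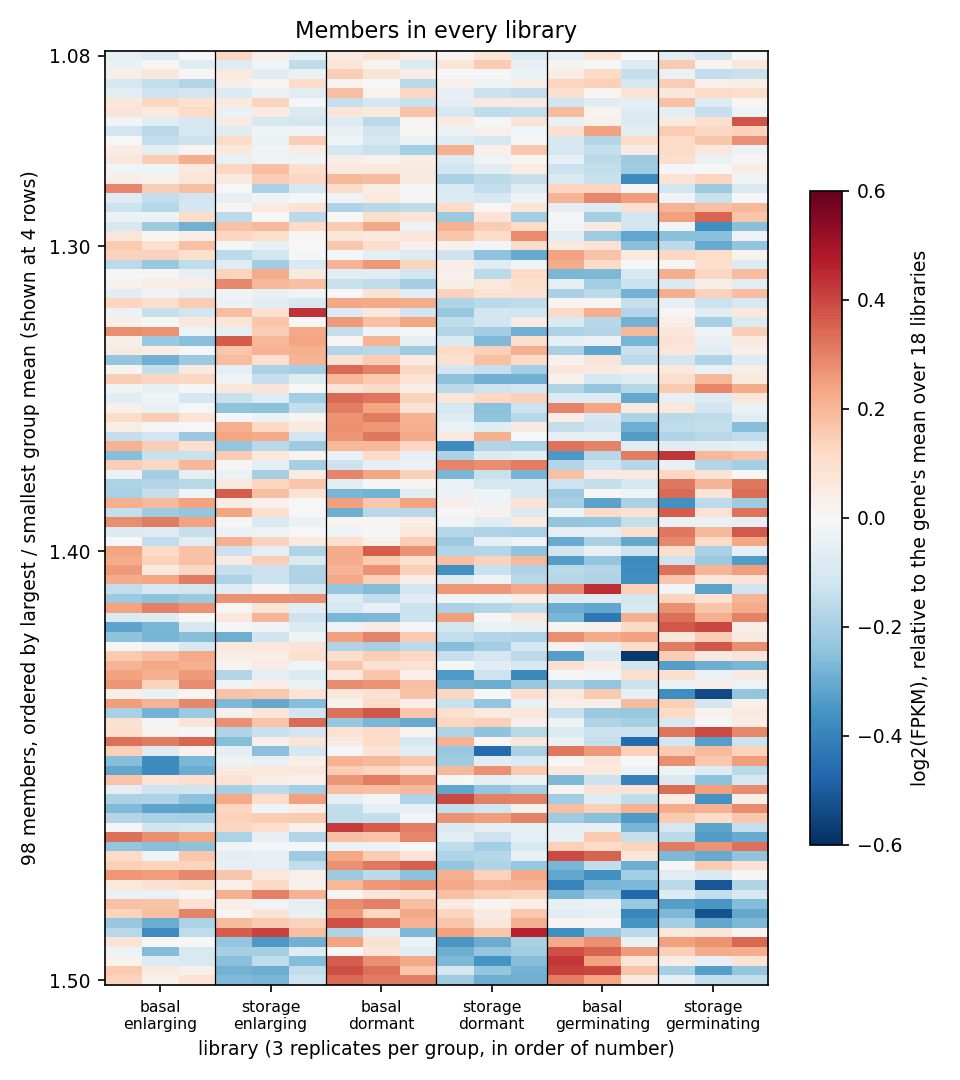
Each of the 98 members (rows, from the most even at the top to the least even at the bottom, ratio printed at 4 rows) in the 18 libraries (columns, by group). Colour is the log2 FPKM relative to the mean of the gene over the libraries. Deviations grow from top to bottom, and basal dormant clove is the highest group for 29 members and basal germinating clove the lowest for 27.

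The highest and lowest groups were spread unevenly. Basal dormant clove was the highest group for 29 members and storage germinating clove for 26, while storage dormant clove was highest for 6. Basal germinating clove was the lowest group for 27 members and storage dormant clove for 23, and storage enlarging clove for 4. Of the 826 genes that met the floor and the upper limit, 26.5% were highest in basal dormant and 21.1% in storage germinating clove. In basal germinating clove 30.3% were lowest. Storage dormant clove was the highest group for 132 of the 826 genes but 6 of the 98 members, and storage enlarging clove for 74 of the 826 genes and 12 of the members. Summed over the set, the members made up 2.29% to 2.72% of all FPKM in a library and 1.90% to 2.13% of the reads. Their geometric mean lay between 218 FPKM (basal germinating replicate 3) and 247 FPKM (basal dormant replicate 2), a range of 1.14-fold over the 18 libraries. The geometric mean of the 4 most even members ranged over 1.12-fold. Both ranges are narrow by the choice of the genes on these values. After median-ratio scaling the geometric mean of the 98 members ranged over 1.28-fold. It then went from 208 FPKM in basal enlarging replicate 2 to 266 FPKM in basal germinating replicate 1.

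The rule was also tried with part of the libraries set aside. The rule was applied to 2 of the 3 replicate numbers, and the 6 libraries of the left-out number were then examined one value per group. With number 1 left out, 101 genes met the rule, and 73 of them (72.3%) also kept within 1.5-fold in the left-out libraries. With number 2 left out, 67 of 104 did (64.4%), and with number 3 left out 66 of 89 (74.2%), a mean of 70.3% ± 5.16 (SD, n = 3 choices that share libraries). Among all genes that met the floor and the upper limit on the same libraries, between 10.3% and 12.3% did. In the left-out libraries the median ratio of the chosen genes was 1.40 to 1.43 and the highest 2.03. Most of the genes chosen in this way were members (90 of 101, 91 of 104 and 81 of 89), an overlap built in because the members were chosen on all the libraries. The left-out libraries are replicates of the same 6 groups, so a higher share among genes picked for evenness is favoured in advance. Nothing is read from its distance to the share of all genes, and these shares do not speak to other material.

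**Figure D4:**
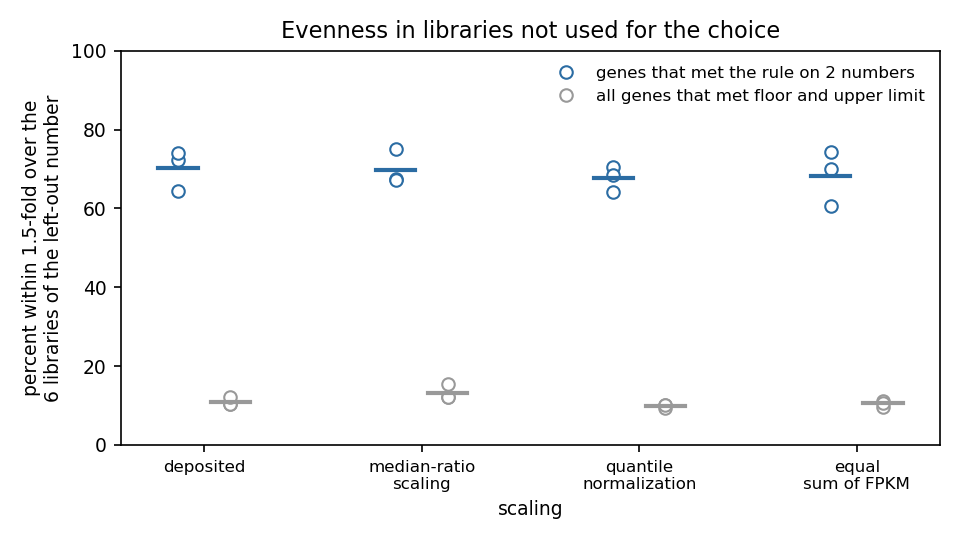
Percentage of genes that stay within 1.5-fold over the 6 libraries of a replicate number not used to choose them (vertical axis), for the deposited values and 3 other scalings (horizontal axis). Circles are the 3 numbers left out in turn and bars their mean. Genes chosen by the rule (blue) reach 60.6% to 75.0%, all genes that meet the floor and upper limit (grey) 9.40% to 15.4%. The left-out libraries are replicates of the same groups, which favours the chosen genes.

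Whether a gene counted as even depended on how the libraries were put on one scale. FPKM divides by the total of the library. Median-ratio scaling instead sets the median gene to be equal between libraries, and its factors ran from 0.835 in basal germinating to 1.10 in basal enlarging clove. Under it 132 genes met the rule, 61 of them members, and 71 were not members. Quantile normalization, which gives all libraries one distribution, left 92 genes, 70 of them members, and scaling to equal sums of FPKM 106, 85 of them members. In all 4 scalings 41 genes met the rule, all of them members, since the deposited values are among the 4. The largest ratio of a member under any scaling was 1.85.

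The members that left the set under median-ratio scaling were mostly those that then stood high at germination. Of 37 members that no longer met the rule, 32 exceeded the ratio limit, with their highest group in basal germinating clove for 17, storage germinating for 12 and storage dormant for 3. Basal germinating clove became the highest group for 39 members and the lowest for 0, whereas with the deposited values it was highest for 9 and lowest for 27. The median-ratio factors of basal germinating clove were the lowest, so this scaling raised all genes there, members or not. From dormant to germinating basal clove the median difference of all 30530 genes was -0.27 on the log2(FPKM + 1) scale as deposited and -0.03 once scaled by median ratios. The median difference of the members was -0.10 and 0.22, which is 0.18 and 0.24 above the median gene. After quantile normalization members and all genes both stood at -0.28, and with equal sums the members stood at -0.19 and all genes at -0.35. In 3 of the 4 scalings the members lay above the median gene at this step. The rule limits how far a member can fall in the deposited values, so nothing is read from this about the members.

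**Figure D5:**
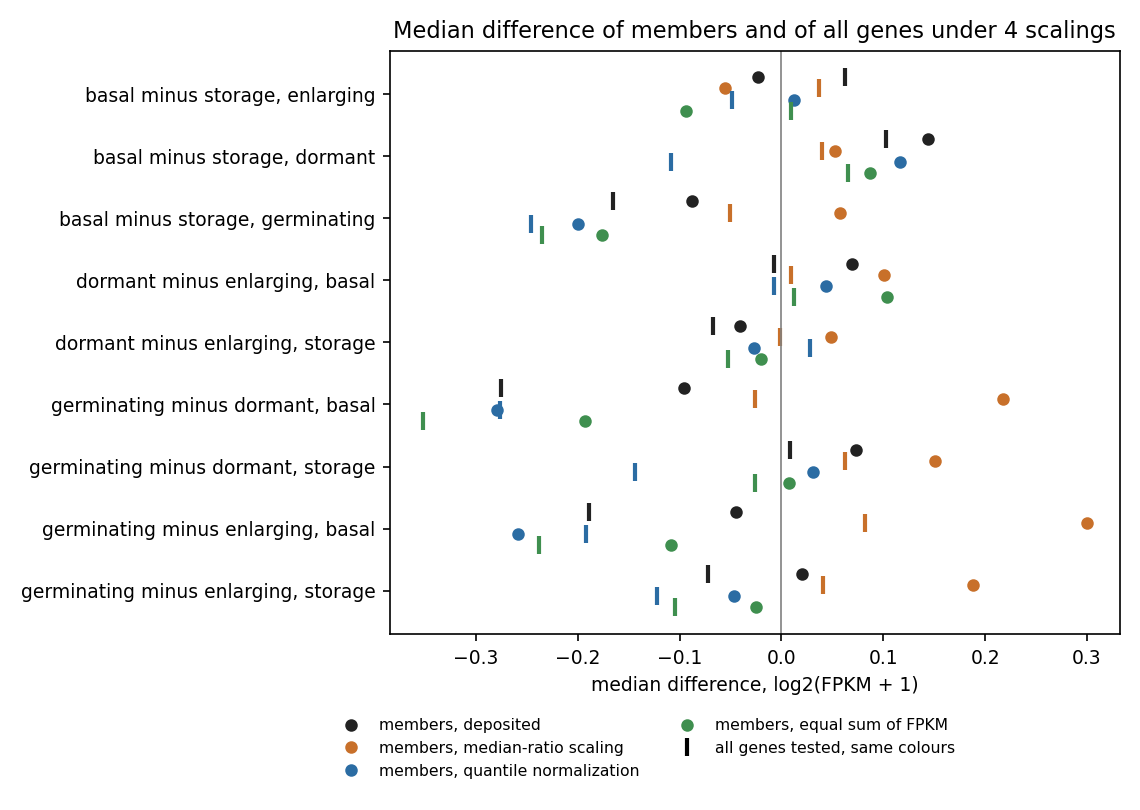
Median difference on the log2(FPKM + 1) scale (horizontal axis) in 9 comparisons of 2 groups (vertical axis) under 4 scalings (colours). Circles are the 98 members and ticks all genes tested. In the comparisons of germinating with dormant or enlarging basal clove the members lie at -0.10 and -0.05 with the deposited values and at 0.22 and 0.30 after median-ratio scaling.

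The member with the smallest worst ratio over the scalings was Asa8G03226.1, whose ratio went from 1.15 with the deposited values to 1.26 after median-ratio scaling, 1.24 after quantile normalization and 1.15 with equal sums. Asa1G02383.1 reached 1.29 at most. Asa3G01559.1, with a ratio of 1.30 as deposited, kept to at most 1.28 under the others. Asa3G01559.1 stood at 729 ± 20.4 FPKM in basal enlarging and 561 ± 28.6 in storage germinating clove, its highest and lowest groups. Asa6G00131.1 reached 1.31, under quantile normalization. The most even member of the deposited values, Asa2G00997.1, reached 1.32 after median-ratio scaling, and Asa2G01012.1 reached 1.46. These genes were picked for these values, so the ratios are a description.

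Tissue differences persisted inside the 1.5-fold limit. Group means were higher in basal clove at all 3 stages for 22 members and higher in storage clove at all 3 stages for 20. These are 22.4% and 20.4% of the members, against 31.4% and 25.8% of the 826 genes that met the floor and the upper limit. The 3 values of one tissue all exceeded the 3 of the other at each stage for 7 members in favour of basal clove, against 15.3% of all genes tested. In favour of storage clove 6 members did so, against 12.7%. The limit itself removes genes with large tissue differences, so these shares are not compared.

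Asa7G06992.1 was the member furthest towards basal clove. Asa7G06992.1 measured 510.4, 474 and 467 FPKM in the basal libraries of enlarging bulbs, 598, 575 and 513 in those of dormant and 608, 603 and 514 in those of germinating bulbs. The storage libraries of the same stages had 376, 371 and 413, then 426, 388 and 376 and last 399, 364 and 389.9 FPKM. At each stage every basal value was above every storage value, with means of 484 ± 23.4 against 387 ± 22.7, 562 ± 43.6 against 397 ± 26.2 and 575 ± 52.8 against 384 ± 18.3 FPKM. Over the stages the mean log2 ratio of basal to storage clove was 0.47. For Asa5G01598.1 it was 0.40, with 270.4 ± 3.46 FPKM in basal and 180.5 ± 5.57 in storage dormant clove. Both lay at the edge of the limit, and after median-ratio scaling their ratios were 1.85 and 1.67.

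In the other direction Asa8G02932.1 stood out by its close replicates. In enlarging bulbs Asa8G02932.1 measured 416, 411 and 410.2 FPKM in the 3 basal libraries and 519, 522 and 524 in the 3 storage libraries. In dormant bulbs it measured 423, 425 and 465 FPKM in basal and 567, 559.6 and 579 in storage clove. Germinating bulbs had 406, 396 and 372 FPKM in basal and 525, 508 and 527 in storage clove. Storage clove exceeded basal clove at each stage with no overlap, and the mean log2 ratio of basal to storage clove was -0.38. This gene had the most reads of any member in a library, 22420. Asa7G01580.1 had a mean log2 ratio of -0.44, at 118 ± 8.72 FPKM in basal and 163 ± 17.9 in storage dormant clove. The single values of Asa7G01580.1 differed by up to 1.79-fold, the most of any member.

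In single comparisons the rule itself kept the members near 0, since it holds their group means within 1.5-fold of each other. Medians are therefore a description of the members, here and for the stages below. Between the tissues the members' median difference, basal minus storage, was -0.02 in enlarging, 0.14 in dormant and -0.09 in germinating bulbs on the log2(FPKM + 1) scale. The medians of all genes tested were 0.06, 0.10 and -0.16. The members' median lay further from 0 than that of all genes in dormant bulbs, and nearer in enlarging and germinating bulbs. In enlarging bulbs 47 members were higher and 51 lower in basal clove, in dormant bulbs 68 and 30, and in germinating bulbs 36 and 62. The 3 basal values were all above the 3 storage values for 36 members in enlarging bulbs (34.2% of all genes tested), 53 in dormant bulbs (38.4%) and 12 in germinating bulbs (25.6%). They were all below for 36 (27.4%), 18 (26.7%) and 36 (36.1%). Nothing is read from these shares, since the same means chose the members. After median-ratio scaling the counts above and below turned in germinating bulbs to 35 and 14 (58.7% of all genes tested in either direction). In dormant bulbs this scaling drew them closer, to 34 and 27 (65.1%). In enlarging bulbs they were 28 and 47 with equal sums (61.6%). Each scaling moves all genes of a library, so nothing is read from these counts about the members. The direction of the median in germinating bulbs flipped to 0.06 after median-ratio scaling, and that in enlarging bulbs to 0.01 after quantile normalization.

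From enlarging to dormant bulbs the members' median difference was 0.07 in basal and -0.04 in storage clove, the latter becoming 0.05 after median-ratio scaling. In basal clove 41 members had 3 dormant values all above the 3 enlarging ones (26.9% of all genes tested) and 20 all below (25.7%). In storage clove the larger mean exceeded the smaller by at most 25% for 94 of the 98 members, 10 had 3 dormant values all above the 3 enlarging ones (12.7% of all genes tested) and 29 all below (22.5%). After median-ratio scaling the counts above and below in storage clove turned to 25 and 14 (35.2% of all genes tested in either direction). In basal clove they were 45 and 14 (52.7%). From dormant to germinating bulbs the median difference was -0.10 in basal and 0.07 in storage clove, and 73 and 70 members differed by at most 25%. In basal clove 11 members had all 3 germinating values above the dormant ones (27.9% of all genes tested) and 40 had all below (46.1%). In storage clove these were 43 (31.7%) and 29 (30%). In basal clove median-ratio scaling turned the median to 0.22 and the counts above and below to 61 and 7 (69.8% of all genes tested in either direction). Quantile normalization gave 1 and 71 (74.1%) and equal sums 6 and 61 (75.5%). In storage clove the counts were 54 and 21 under median-ratio scaling (61.5%), 36 and 37 after quantile normalization (63.9%) and 35 and 34 with equal sums (62.2%). Nothing is read from these counts about the members, since each scaling moves all genes of a library. The rule also limits how far the group means of a member can differ in the deposited values. The medians and the counts within 25% are therefore a description.

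Over the whole span, from enlarging to germinating bulbs, the members' median difference was -0.05 in basal and 0.02 in storage clove. In basal clove 24 members had all 3 germinating values above the enlarging ones (30.8% of all genes tested) and 43 all below (43.1%). In storage clove 35 had all above (26.2%) and 30 all below (32.2%). The direction of these medians turned with the scaling: in basal clove the median was 0.30 after median-ratio scaling, and in storage clove -0.05 after quantile normalization and -0.02 with equal sums. The counts above and below in basal clove turned to 71 and 3 under median-ratio scaling (72.5% of all genes tested in either direction). They stood at 10 and 61 after quantile normalization (74.0%). In storage clove they were 58 and 9 under median-ratio scaling (57.8%), 21 and 35 after quantile normalization (59.6%) and 26 and 34 with equal sums (59.0%). As above, nothing is read from these counts or medians about the members. These comparisons share groups with those above, so their values are not independent of them.

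The order of the groups was not the same at each stage or in each tissue for many members. Means were higher in germinating than in dormant bulbs in both tissues for 24 members and lower in both for 32 (24.5% and 32.7%, against 28.7% and 45.3% of the 826 genes). For 29 members the tissues were without overlap in one direction at 1 stage and in the other direction at another (13.1% of all genes tested). From enlarging to dormant bulbs 15 members were without overlap in opposite directions in the tissues (11.2%), and from dormant to germinating bulbs 17 (6.5%). Asa7G00417.1, given above library by library, was one of those with opposite tissue directions, higher in storage clove in enlarging and germinating bulbs and higher in basal clove in dormant bulbs. The limit of the rule removes genes with large differences in one direction, so nothing is read from these shares.

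The members named for dormancy against germination were picked on the log2 difference averaged over the tissues, a choice that favours one direction in both. Asa7G04791.1 measured 399, 417 and 422 FPKM in basal dormant and 407, 399 and 401 in storage dormant clove, and 264, 286 and 288 and 310.4, 244 and 307 in the same tissues at germination. All germinating values were below all dormant ones, and the mean log2 ratio over the tissues was -0.52. Asa7G02489.1 stood at 139 ± 6.24 and 141 ± 2.83 FPKM in dormant and at 101 ± 4.91 and 107 ± 7.82 FPKM in germinating basal and storage clove, with no overlap in either tissue. Asa7G02652.1 was higher at germination, at 151 ± 7.12 against 121 ± 5.72 FPKM in basal and 138 ± 4.37 against 101 ± 2.98 in storage clove. Asa3G03773.1 was higher too, most of all in storage clove, at 804 ± 27.0 against 565 ± 30.5 FPKM. Under median-ratio scaling the ratio of Asa7G04791.1 was 1.33 in place of 1.48, and that of Asa7G02652.1 1.74 in place of 1.49.

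The most abundant members were Asa6G01995.1 and Asa2G01012.1. Asa6G01995.1 stood at 991 ± 81.0, 1164 ± 32.3 and 1204 ± 43.9 FPKM in basal clove from enlarging to germinating bulbs and at 1130.0 ± 30.2, 1109.7 ± 29.6 and 1406 ± 189 in storage clove. Its storage germinating values were 1501, 1529 and 1189 FPKM, so that 1 replicate lay within the range of basal germinating clove and the others above it. At the lower end, next to Asa2G00997.1, Asa7G07191.1 stood at 135 ± 4.85 FPKM in basal dormant and 101 ± 5.74 in storage dormant clove, and the lowest of its values was 95.0 FPKM.

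The ratio of one member to another within a library is free of any factor that scales the whole library. Over all 4753 pairs of members, the SD of the log2 ratio across the 18 libraries had a median of 0.24 and reached 0.50, and it was below 0.1 for 28 pairs. Averaged over all partners, it was lowest for Asa2G00997.1 (0.19) and highest for Asa7G01580.1 (0.31), with a median of 0.24. Members with a small ratio of group means also had a small average SD (Spearman correlation 0.80 across the 98 genes, which share all libraries and in both measures rest on the same values). The steadiest pair, picked from its values, was Asa4G01857.1 and Asa7G07191.1, with an SD of 0.068. Their ratio stayed between 1.83 and 2.16 in all 18 libraries. Each gene was itself highest in basal dormant and lowest in storage dormant clove, so their steady ratio is not a constant level.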

How the data were processed

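RNA of basal and storage clove at 3 stages was sequenced in 18 libraries, 3 per group, per the labels. The authors deposited 1 table of FPKM values with 1 column per library, per the file headers. HISAT2 is named in the submitters' processing notes, without a version. No source used here gives the counter, genome build, annotation or use of strand, so reads shared by near-identical genes may be split or lost. IDs come without names, so no sequence, position or function is given, and a planned count of classical reference gene families was not made.

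Reads and coding lengths were recovered from the steps of the FPKM values. All 595800 values above 0 came out whole within 0.01 reads, in part because the length was searched for, and 95.2% of the lengths of 21276 genes were multiples of 3. Counting errors cover counting only. The rule was applied to group means of FPKM (Python 3.11.15, pandas 2.3.3). The F-test used limma 3.58.1 in R 4.3.3 with a trend in mean expression on log2(FPKM + 1), which understates differences of low genes, for genes with at least 1 FPKM in at least 3 libraries, and was tested on simulated data. Replicate pairs differed by a chi-square per gene of 2.68 to 65.9, so each library counted as 1 replicate. The 20 members named are the extremes of evenness, level, spread, tissue and stage difference and the limits of the rule. Asa4G01857.1, named only for the steadiest pair of members, is not among these 20. The set and these choices were made with earlier results of these data known. The alternatives were 3 other scalings, other limits, medians, another pseudocount, no filter, voom on recovered reads, library weights, the replicate number as a block and leaving out libraries.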

Additional observations from a re-analysis of the deposited data

Results flagged for a closer look

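In 4 of the members named, a difference without overlap of the 3 values went one way in some groups and the other way in others. The difference between these effects was not tested, and over all genes tested 13.1% show it between tissues at different stages. Asa6G01995.1 was lower in basal than in storage clove in enlarging bulbs (log2 ratio of group means -0.19) and higher in dormant bulbs (0.069). Asa7G00417.1 was lower in basal clove in enlarging (-0.23) and germinating bulbs (-0.17) and higher in dormant bulbs (0.12). From enlarging to dormant bulbs Asa7G00417.1 was higher in basal clove (0.22) and lower in storage clove (-0.13). At the same step Asa7G07191.1 was higher in basal (0.15) and lower in storage clove (-0.15). Asa5G05204.1 was likewise higher in basal (0.13) and lower in storage clove (-0.27). Opposite directions without overlap at this step were found in 11.2% of all genes tested. No group had more than 3 libraries, so single libraries were not examined for values far from the others.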

How the results depend on the processing

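The number of genes in the set followed the limits. It was 98 as given, 13 when the largest mean could exceed the smallest by 25% at most, 377 with a ratio limit of 2, 279 with a floor of 50 FPKM, 38 with a floor of 200 FPKM and 42 when every library had to keep the limits. It was 132 after median-ratio scaling, 92 after quantile normalization, 106 with equal sums of FPKM, 101 with no upper limit and 98 with group medians, of which 88 were members. Leaving out 1 library or 1 replicate number gave 89 to 106 genes. The median ratio of the members was 1.41 after median-ratio scaling, 1.42 after quantile normalization and 1.41 with equal sums, in place of 1.39, and 1.37 to 1.40 with a library left out. The median coefficient of variation between replicates was 3.56% to 4.33% with a library left out and 3.55% without the 2 libraries nearer to the other tissue, left out together after seeing the data, in place of 4.25%. The share of chosen genes that stayed even in a left-out number, 70.3%, was 67.8% to 69.9% under the other scalings. The F-test called 94 of the 98 members (92.3% of all genes tested) and 92 to 98 under the other settings (73.8% to 94.3%). With a library left out it called 91 to 96 members (90.9% to 92.4% of all genes tested). Deviations from the group means correlated between -0.24 and 0.24 over 45 pairs of libraries with the same number. Over 90 pairs with different numbers they correlated between -0.31 and 0.32. These ranges do not show pairing by replicate number and cannot exclude it for the 2 tissues of a stage. With the replicate number as a block 93 members were called (92.0% of all genes tested). Of the 20 members named, 9 exceeded 1.5-fold after median-ratio scaling, 7 after quantile normalization, 4 with equal sums and 5 with group medians, and 6 did when some single library was left out.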
